A study of Mus musculus with 8 samples.

Results

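Microtubules are polymers of alpha and beta tubulin, and a neuron builds its axon and dendrites on them. Vertebrates carry several genes for each tubulin, called isotypes, and the isotype mixture of brain tubulin changes between the growing and the mature neuron. Microtubule-associated proteins (MAPs) bind the polymer and stabilise, space or destabilise it, and some of them, such as doublecortin, are best known from migrating and newly born neurons.

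The 10 genes described here are 5 tubulins (Tubb3, Tubb2a, Tubb2b, Tubb4a and Tuba4a) and 5 genes for proteins that bind microtubules or tubulin (Map1b, Map2, Dcx, Stmn2 and Tppp). They were taken by their gene symbol from a table of 34299 genes, and all 10 were found and passed the filter on low counts. The table holds 8 RNA-seq libraries of mouse whole brain. At gestation day 15, 3 libraries came from fetuses that were wild-type (WT) and 3 from fetuses with a knockout (KO) of Cav1, and 2 further libraries came from Cav1 KO brains at week 70. Cav1 encodes caveolin 1, a membrane protein of caveolae, and no other allele, agent or strain is named in the labels. The labels call the fetal samples biological replicates and say nothing of the kind for week 70, and p-values measure the spread between these samples. The 2 week 70 libraries came from different animals, as only 1 of them held Y-linked counts in number. WT brains at week 70, which the series mentions from an earlier study, are not analysed here, so that age can be followed within the KO only.

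Total counts ranged from 19414747 to 20833397 in the WT libraries, from 14110031 to 15245283 in the KO day 15 libraries and from 18924304 to 20203233 at week 70. Cav1 held 367, 218 and 329 counts in WT and between 0 and 5 in the KO libraries. Depth separated the fetal genotypes completely, and the KO ages as well. No batch is given in the labels, so that neither genotype nor age can be told apart from any batch. Processed pseudogenes took 3.55 to 3.69% of the counts in WT, 6.15 to 6.49% in KO day 15 and 0.306% in both week 70 libraries, so the 3 groups also differ in how reads fell on gene copies. In addition, the fetal libraries and week 70 replicate 1 held many counts of Xist (7969 to 93272) and no more than 4 Y-linked counts, whereas week 70 replicate 2 held 4 and 2219. Levels are given as CPM, read counts scaled to the library total with TMM factors over all 8 libraries. Fold changes come from edgeR's quasi-likelihood test on the libraries compared, adjusted by Benjamini-Hochberg over all genes tested, with a threshold of 0.05. In whole tissue, fewer cells of a type and less RNA per cell cannot be told apart.

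At day 15, Map1b, Tubb4a, Tubb2a and Tubb3 were much lower in KO than in WT, whereas Stmn2 was higher. Of the 10 genes, 6 fell and 2 rose in KO, where 62.6% of all 19147 genes tested were called, 32.5% lower and 30.1% higher. The groups did not overlap for 9 of the 10 genes, 2 higher and 7 lower in KO, against 68.3% of all genes tested, 32.1% higher and 36.2% lower. The 10 genes had a median log2 fold change of -0.35, against 0.029 for all genes tested. Between day 15 and week 70 within the KO, the 10 genes spread much further apart. Tuba4a, Tppp and Tubb4a rose and Dcx, Tubb2b and Stmn2 fell, each by more than 1 on the log2 scale, whereas the log2 fold changes of Tubb2a, Map2 and Map1b lay between -0.25 and 0.31. By age, 5 rose and 4 fell, where 82.0% of 20000 genes tested were called, 37.6% higher and 44.4% lower. The 2 ages did not overlap for 9 genes, 5 higher and 4 lower, against 87.9% of all genes tested, 42.3% higher and 45.6% lower. The median log2 fold change was 0.0059 for the 10 genes and -0.19 for all genes tested, and the median of the absolute values was 2.24 and 1.40.

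**Figure D1:**
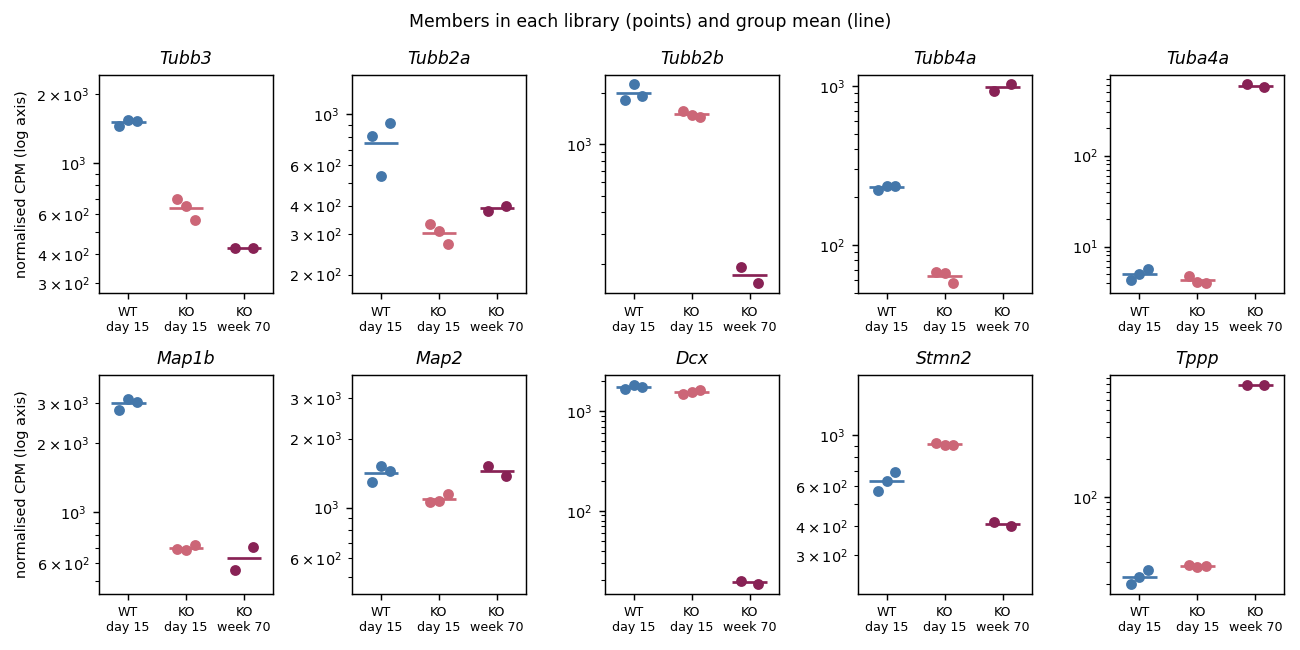
Normalised CPM (log axis, scaled for each gene) of the 10 genes in every library, as points, with the group mean as a line. Tuba4a and Tppp lie near the bottom of the scale in all fetal libraries and at 559.6 to 795 CPM at week 70, while Dcx runs the other way.

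The fetal genotype difference also followed transcript length and GC content. Over 19052 tested genes with known properties, Spearman's rho of the log2 fold change was -0.39 with length and -0.47 with GC content. For the change by age, over 19898 genes, it was 0.20 and 0.29, of opposite sign. The KO day 15 libraries enter both comparisons, as the tested group by genotype and as the baseline by age. A deviation of these libraries alone would thus enter the 2 comparisons with opposite signs. These values are descriptions across genes, which are no independent replicates. The tubulin transcripts are GC-rich, at 57.9% for Tubb3, 57.2% for Tubb4a and 55.2% for Tubb2a against a median of 49.6% for tested genes, and the Map1b transcript is 11808 bases long against a median of 2793. For this reason the fold changes of the 10 genes are followed by their values in a fit corrected for both properties, called corrected values. In that fit 2 of the 10 genes were higher and 6 lower in KO at day 15, with Dcx called and Map2 not, where 50.2% of 19050 genes were called, 25.7% higher and 24.5% lower. By age 3 were higher and 4 lower in it, where 78.7% of 19896 genes were called, 39.7% higher and 39.0% lower.

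Tubb3, class III beta tubulin, is the isotype used as a marker of neurons. Its level was 1447, 1541 and 1527 CPM in the WT libraries, 697, 651 and 565 in the KO fetuses, and 428 and 427 in the aged brains. Every KO day 15 library lay under every WT library, and both week 70 libraries lay lower still. The log2 fold change of KO against WT was -1.20 (edgeR SE 0.0774, adjusted p 3.73e-07), and -0.86 corrected. By age it was -0.67 (edgeR SE 0.105, adjusted p 0.000156), and -1.20 corrected.

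Tubb4a, the class IVa isotype of mature brain, is abundant in oligodendrocytes and neurons. It stood at 223, 234 and 234 CPM in WT, at 67.3, 66.8 and 57.3 in the KO fetuses, and at 938 and 1025 in the aged brains. The KO fetuses were thus lowest and the aged KO brains highest, with no overlap among the 3 groups. Its log2 fold change between the genotypes was -1.81 (edgeR SE 0.0718, adjusted p 2.34e-08), and -1.41 corrected. Within the KO it rose with age by 3.84 on the log2 scale (edgeR SE 0.104, adjusted p 2.83e-10), and by 3.27 corrected.

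Tubb2a and Tubb2b encode near-identical beta tubulins, and mutations of TUBB2B in people are known from disorders of cortical layering. Both genes lie on chromosome 13, in GRCm38 at chr13:34074274-34078007 and chr13:34126748-34130466 on the minus strand. Tubb2b was at 1816, 2243 and 1912 CPM in WT, at 1577, 1480.1 and 1454 in the KO fetuses, and at 192 and 153 in the aged brains. The fetal groups did not overlap, but the step between them was small beside the fall by age. In edgeR the log2 fold change was -0.37 for KO against WT (SE 0.0825, adjusted p 0.00284; -0.29 corrected) and -3.22 by age (SE 0.129, adjusted p 3.64e-09; -3.29 corrected). Tubb2a was at 804, 537 and 913 CPM in WT, at 331, 309.9 and 271 in the KO fetuses, and at 381 and 399 in the aged brains. It was lowest in the KO fetuses, and WT replicate 2 stood apart from the other WT libraries. Between the genotypes its log2 fold change was -1.26 (edgeR SE 0.158, adjusted p 4.79e-05), and -1.12 corrected. By age Tubb2a passed the threshold narrowly, at 0.26 on the log2 scale (edgeR SE 0.0995, adjusted p 0.0320), and it was not called in 10 of 14 alternatives, among them the corrected fit at 0.030.

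How the counts were split between these 2 genes differed within the WT group. In the order of their replicate numbers, the WT libraries held 17188, 10758 and 18145 counts of Tubb2a, and 38831, 44901 and 38009 of Tubb2b. Replicate 2 was low in the former and high in the latter, while their sums were nearly level at 56019, 55659 and 56154 counts. Scaled for depth, the sums were less level, at 2620, 2781 and 2824 CPM. Tubb2a thus took 30.7, 19.3 and 32.3% of the pair in WT, 17.4, 17.3 and 15.7% in the KO fetuses, and 66.5 and 72.3% in the aged brains. Without WT replicate 2, the Tubb2a log2 fold change between the genotypes was -1.46. Taken as 1 feature, a choice made after seeing the data, the pair fell by 0.56 on the log2 scale between the genotypes (edgeR SE 0.0599, adjusted p 1.46e-05), without correction for length and GC content. With age the summed pair fell by 1.78 (edgeR SE 0.101, adjusted p 5.05e-08). The pseudogene Tubb2a-ps2, whose transcript aligned best to Tubb2b, held 2676, 3625 and 3598 counts in WT, 1960, 2140 and 1349 in the KO fetuses, and 19 and 5 in the aged brains. How reads that match several copies were counted is not given in the sources used here, so that the values of Tubb2a and Tubb2b taken singly are uncertain.

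**Figure D2:**
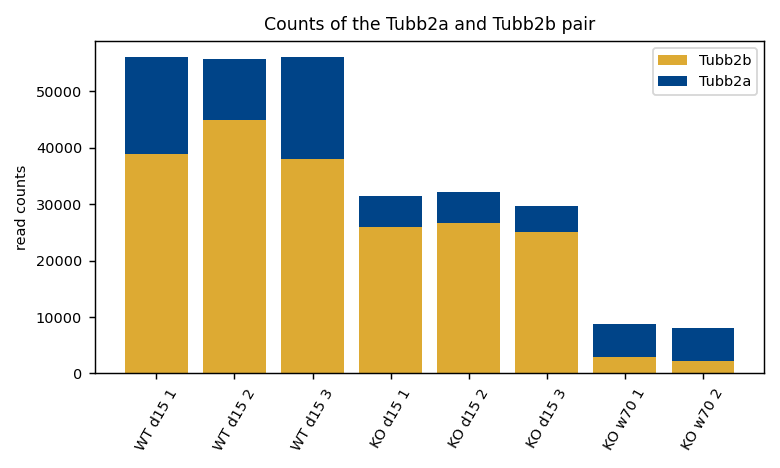
Read counts of Tubb2b (lower part of each bar) and Tubb2a (upper part) in the 8 libraries, not scaled for depth (d15, day 15; w70, week 70; last digit, replicate). The 3 WT bars have nearly the same height, from 55659 to 56154 counts, but the Tubb2a part is smallest in replicate 2.

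Tuba4a is an alpha tubulin that, unlike most alpha isotypes, is encoded without the C-terminal tyrosine. The WT libraries held only 91, 99 and 112 counts of it and the KO fetuses 79, 73 and 68, but the aged brains 9136 and 8112. In CPM this was 4.95 ± 0.688 and 4.27 ± 0.459 in the fetal groups (SD, n = 3 each) and 603 and 559.6 in the aged brains. The fetal groups overlapped, and the log2 fold change of -0.17 between them did not pass the threshold (edgeR SE 0.179, adjusted p 0.416; 0.12 corrected, the opposite sign). By age it rose by 6.99 on the log2 scale (edgeR SE 0.115, adjusted p 4.44e-11; 6.65 corrected), further than 99.6% of the genes tested.

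Set against each other within a library, the isotypes show the change in make-up without any library scaling. Counts were divided by the length of all exons of a gene, and each gene was expressed as a share of the beta or alpha pool. These shares are not corrected for the trend with length and GC content, and the isotypes differ in GC content. For the log2 count ratio of Tubb4a to Tubb2b, that correction moved the fetal difference from -1.46 to -1.13. Tubb3 made up 26.3 ± 0.447% of beta tubulin mRNA in WT (SD, n = 3), 20.7, 20.6 and 18.9% in the KO fetuses, and 17.0 and 16.7% at week 70. Tubb2b took 26.6, 31.8 and 26.7% in WT and 38.6 ± 0.838% in KO day 15 (SD, n = 3), but 6.19 and 4.89% at week 70. Tubb2a took 16.8, 10.9 and 18.2% in WT, 11.1 ± 0.514% in KO day 15 (SD, n = 3) and 17.5 and 18.2% at week 70, the second largest share there, with the split between the pair uncertain. The share of Tubb4a was 3.38 ± 0.0307% and 1.68 ± 0.0814% in the fetal groups (SD, n = 3 each) and 31.2 and 33.7% in the aged brains, where it was the most abundant beta isotype. Tubb5, the widely expressed beta isotype, went from 24.6 ± 0.825% in WT and 26.8 ± 0.895% in KO day 15 to 14.5 and 13.6%. Tubb4b, also widely expressed, was below 2% in every fetal library and at 13.4 and 12.8% at week 70. Tubb1 and Tubb6 took at most 0.243% in each of the 8 libraries. Tubb3, Tubb5 and the Tubb2a and Tubb2b pair thus made up most of the beta pool in the fetal libraries, and Tubb4a held the largest single share in the aged ones.

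The alpha pool was simpler. Tuba1a, the alpha isotype of developing neurons, made up 90.1 ± 0.19% of alpha tubulin mRNA in WT and 89.7 ± 0.3% in KO day 15 (SD, n = 3 each), and 49.2 and 46.2% at week 70. Tuba4a rose from 0.0683 ± 0.00961% and 0.0917 ± 0.00519% in the fetal groups to 18.9 ± 1.54% at week 70 (SD, n = 2), and Tuba8 from 0.0102 ± 0.00518% in KO day 15 to 1.21 and 0.833%. Tuba1b was at 8.20 ± 0.317% and 8.85 ± 0.404% in the fetal groups and at 28.5 and 33.8% at week 70, and Tuba1c was between 1.12 and 1.67% in all libraries by its own counts. The fetal values of Tuba1b and Tuba1c are uncertain, because counts of their processed pseudogenes reached 176% and 516% of the parent's own counts in a fetal library, against at most 4.38% and 2.41% at week 70. With those counts added to their parents, a choice made after seeing the data, Tuba1a took 75.2 ± 1.09% in WT and 76.5 ± 1.37% in KO day 15 (SD, n = 3 each). Tuba1b then took 18.8 ± 0.570%, 17.9 ± 0.895% and 32.0 ± 3.65% in WT, KO day 15 and week 70, and Tuba1c 5.99 ± 0.551%, 5.55 ± 0.519% and 1.23 ± 0.160% (SD, n = 3, 3 and 2). Tuba4a was at 18.7 ± 1.51% at week 70 (SD, n = 2). The length-scaled level of the whole beta pool was 3057 ± 73.2 CPM per kb in WT, 1700 ± 99.3 in KO day 15 (SD, n = 3 each) and 1350.2 and 1365 at week 70. For the alpha pool it was 1957 ± 20.1, 1255 ± 62.5, and 815 and 849 CPM per kb, so that both pools were lower in KO fetuses than in WT and lower again in the aged brains.

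**Figure D3:**
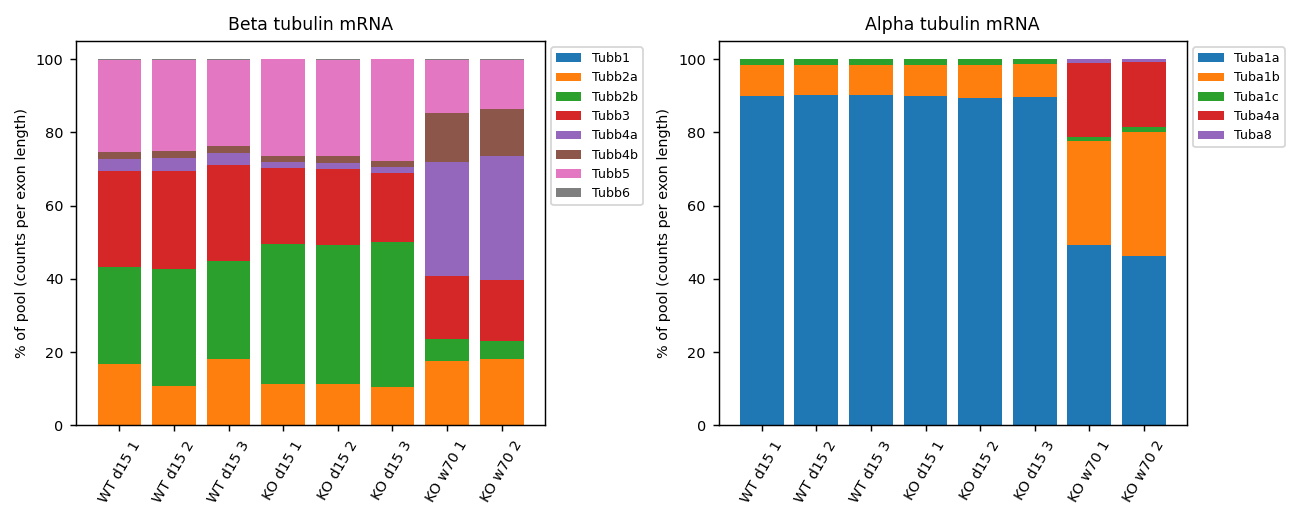
Share of each isotype in the beta (left) and alpha (right) tubulin mRNA of each library, from counts divided by exon length (d15, day 15; w70, week 70; last digit, replicate). Tubb4a is a thin band in the fetal libraries and 31.2 to 33.7% at week 70, and Tuba4a becomes visible only at week 70.

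Map1b, the MAP best known from growing axons, was the gene with the deepest fall between the genotypes among the 10. Its level was 2806, 3136 and 3044 CPM in WT, 693, 688 and 725 in the KO fetuses, and 562 and 704 in the aged brains. The WT libraries stood apart, and the 2 KO ages overlapped. The log2 fold change of KO against WT was -2.05 (edgeR SE 0.0662, adjusted p 1.47e-08), and -1.58 corrected. By age the log2 fold change was -0.25 and did not pass the threshold (edgeR adjusted p 0.0597); it was 0.059 corrected, the opposite sign, and -0.50 with upper-quartile scaling, where edgeR gave an adjusted p of 0.0015. Without week 70 replicate 2 it was -0.42, and edgeR gave an adjusted p of 0.00165. It was called lower in 6 of 14 alternatives. Set beside WT instead, the week 70 mean of Map1b was 0.211 of the WT level, a pair of groups that differs in age and genotype together and was not tested.

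Map2, the MAP of dendrites, was among the most even of the 10 genes over the 3 groups. It was at 1299, 1517 and 1446 CPM in WT, at 1053, 1067 and 1151 in the KO fetuses, and at 1512 and 1376 in the aged brains, so that only KO day 15 lay apart. The log2 fold change between the genotypes was -0.34 (edgeR SE 0.0747, adjusted p 0.00233), but 0.11 in the corrected fit, the opposite sign, where it was not called (edgeR adjusted p 0.251). By age it was 0.31 (edgeR SE 0.0987, adjusted p 0.0148), and it was not called in 5 of 14 alternatives, upper-quartile scaling (0.056), the corrected fit (0.15) and those without KO day 15 replicate 1 (0.28) or replicate 2 (0.29) among them. With Map1b low and Map2 nearly level, the log2 count ratio of Map2 to Map1b was -1.08 ± 0.0318 in WT and 0.64 ± 0.0314 in KO day 15 (SD, n = 3 each). At week 70 it was 1.43 and 0.97. Corrected for length and GC content, the difference of its means between the KO ages went from 0.56 to 0.091. That between the fetal genotypes went from 1.71 to 1.67.

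Dcx encodes doublecortin, which binds microtubules in migrating neurons and is lost from most mature ones. In WT it was at 1680.1, 1843 and 1764 CPM and in KO day 15 at 1491, 1555 and 1630.2, and at week 70 it was at 19.9 and 18.6. No KO fetal library reached a WT library, yet the log2 fold change of -0.14 did not pass the threshold (edgeR SE 0.0643, adjusted p 0.0841), and it was 0.035 with upper-quartile scaling. In 7 of 15 alternatives it was called lower, the corrected fit at -0.23 among them. The fall by age was the steepest of the 10 genes, at -6.44 on the log2 scale (edgeR SE 0.133, adjusted p 8.06e-11), and -5.52 corrected, and 301 and 269 counts remained at week 70. Dcx is on the X chromosome, and these counts came from the libraries with high and with low Xist, respectively.

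Stmn2, or SCG10, binds tubulin and promotes microtubule turnover in growth cones. It was higher in the KO fetuses, at 927, 907 and 907 CPM against 568, 630.3 and 693 in WT, and it was at 418 and 402 at week 70. The 3 groups did not overlap. The log2 fold change was 0.57 between the genotypes (edgeR SE 0.0765, adjusted p 7.83e-05), and 0.28 corrected. By age it was -1.26 (edgeR SE 0.0912, adjusted p 3.56e-07), and -0.76 corrected.

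Tppp, the tubulin polymerisation promoting protein, is known from myelinating oligodendrocytes. The WT libraries held 427, 453 and 513 counts of it, the KO fetuses 462, 487 and 476, and the aged brains 12043 and 11520. In CPM this was 22.8 ± 2.92 in WT and 27.6 ± 0.464 in KO day 15 (SD, n = 3 each), with a narrow gap between 25.8 in the highest WT and 27.1 in the lowest KO library, and 794 and 795 in the aged brains. Between the genotypes the log2 fold change was 0.31 (edgeR SE 0.102, adjusted p 0.0204) and 0.64 corrected. That call was lost without a filter on low counts (0.22) and when WT replicate 1 (0.20), WT replicate 2 (0.30), KO replicate 1 (0.29) or KO replicate 2 (0.32) was left out. By age Tppp rose by 4.75 (edgeR SE 0.0895, adjusted p 6.63e-11), and by 4.61 corrected.

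**Figure D4:**
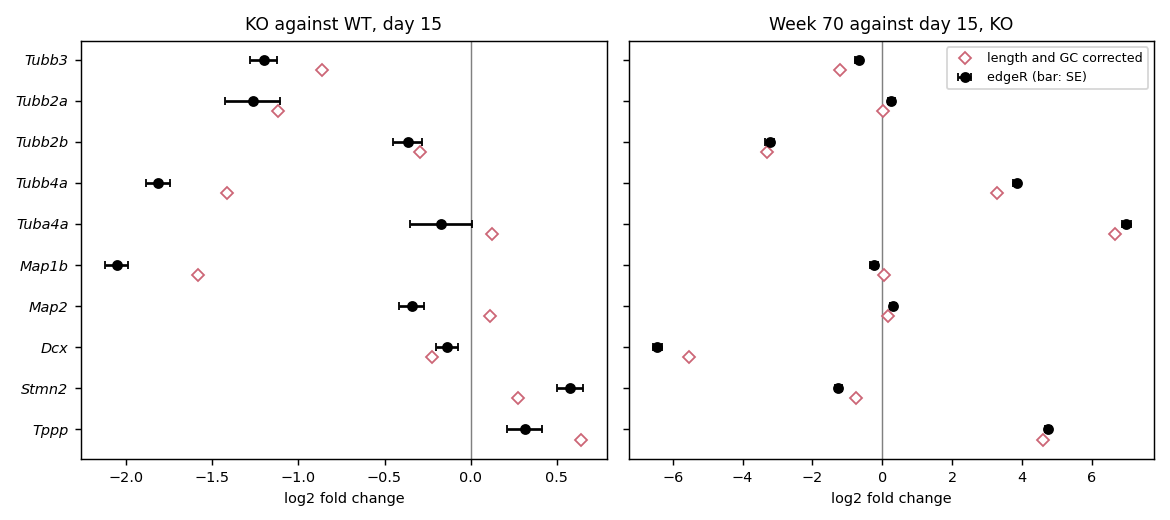
The log2 fold change of the 10 genes for KO against WT at day 15 (left) and for week 70 against day 15 in KO (right), from edgeR with its SE (black) and corrected for length and GC content (open diamonds). The horizontal scales differ. Map2 and Tuba4a change sign with the correction on the left, and Map1b on the right.

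Within-library ratios, which were chosen with earlier results of these data known and carry no test, show the switch in paired form. The log2 count ratio of Tubb4a to Tubb3 was -2.71 ± 0.0114 in WT and -3.32 ± 0.045 in KO day 15 (SD, n = 3 each), and 1.13 and 1.26 at week 70. For Tubb4a to Tubb2b it went from -3.11 ± 0.136 and -4.56 ± 0.0986 to 2.29 and 2.74. Tuba4a to Tuba1a moved from -9.34 ± 0.201 in WT and -8.90 ± 0.076 in KO day 15 to -0.26 and -0.34. Tppp to Stmn2 stood at -4.79 ± 0.0408, at -5.05 ± 0.0135, and at 0.93 and 0.98. For Map1a, the mature partner of Map1b, the ratio to Map1b was -4.04 ± 0.0968, -4.74 ± 0.314, and 1.68 and 1.25. In each of these 5 pairs both week 70 libraries lay above all fetal libraries. Between the fetal groups the direction differed: KO lay below WT in 4 of the pairs and above it for Tuba4a to Tuba1a. With length and GC content corrected, the fetal difference of the ratio of Tppp to Stmn2 turned from -0.26 to 0.37, and those of the other 4 pairs kept their sign.

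**Figure D5:**
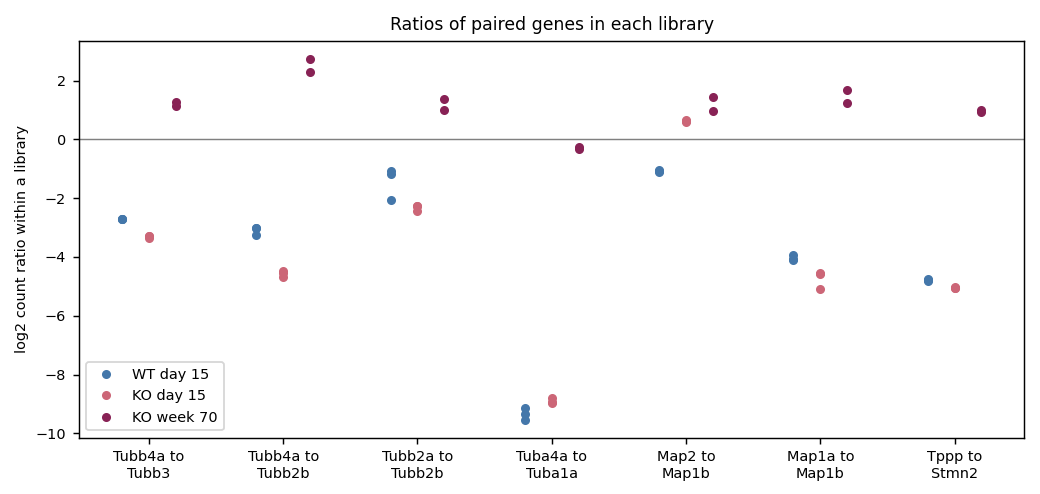
The log2 ratio of the counts of paired genes in each library, by group. A value of 0 means equal counts, with no scaling for gene length and no correction for length and GC content. Week 70 lies highest in all 7 pairs shown, and KO day 15 lies above WT for Tuba4a to Tuba1a and Map2 to Map1b and below it for the others.

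Per kilobase of all annotated exons, Tubb2b (868 ± 97.6 CPM per kb) and Tubb3 (806 ± 27.0) led in WT (SD, n = 3 each), and these neighbours differed by less than their spread. They were followed by Tubb2a (467 ± 120), Map1b (189 ± 10.7), Dcx (139 ± 6.44), Stmn2 (113 ± 11.2), Tubb4a (103 ± 2.86) and Map2 (86.4 ± 6.75), with Stmn2 and Tubb4a within their spread. Tppp (4.47 ± 0.572) and Tuba4a (1.34 ± 0.186) came last. In the KO fetuses the means were 655 ± 28.4 for Tubb2b, 341 ± 35.9 for Tubb3, 189 ± 19.1 for Tubb2a, 163 ± 2.05 for Stmn2, 123 ± 5.52 for Dcx, 66.3 ± 3.21 for Map2, 44.3 ± 1.26 for Map1b and 28.6 ± 2.55 for Tubb4a (SD, n = 3 each), so that Map1b fell from the fourth place to the seventh. At week 70 the means were 441 for Tubb4a, 242 for Tubb2a, 229 for Tubb3, 157 for Tuba4a, 156 for Tppp, 87.8 for Map2, 75.2 for Tubb2b, 73.1 for Stmn2, 39.9 for Map1b and 1.52 for Dcx. Of the neighbours at week 70, Tuba4a and Tppp, and Tubb2b and Stmn2, lay within their spread. By this length Tubb2b, level with Tubb3 at the top in WT, lay beside Stmn2 and below Map2 in the aged brains. Tuba4a, last in WT, lay beside Tppp and above Map2 there. The order depends on the length used. All exons together span 16449 bases for Map2 and 5602 for Stmn2, but the longest coding transcript spans 6258 and 2073. Levels by transcript length are not given here, and the places of Map2, Stmn2, Map1b and Tuba4a could differ with it.

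The promoter table of RefSeq on GRCm38.p6 matched 8 of the 10 genes, all but Tubb2b and Stmn2. In the 250 bases before the start, read on both strands, TATAA was found in Tubb3, Tubb2a, Map1b and Dcx, 4 of 8, and in 23.5% of all 27025 promoters. The GC box GGGCGG was found in 6 of 8 and in 32.9% of all promoters, and the cyclic AMP response element TGACGTCA in Tubb2a alone and in 1.62% of all. The stretches printed here belong to the gene that fell most between the genotypes (Map1b), another that fell (Tubb2a), the gene that fell most with age (Dcx) and one that rose with age (Tppp), and each holds 100 bases that end before the first annotated exon base. Capitals mark matches to the 3 motifs on either strand. They lie at chr13:99516603-99516702 (minus strand), chr13:34078009-34078108 (minus), chrX:143933312-143933411 (minus) and chr13:74009307-74009406 (plus).
Map1b: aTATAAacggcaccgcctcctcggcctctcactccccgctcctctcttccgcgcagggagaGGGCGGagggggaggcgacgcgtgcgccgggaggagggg
Tubb2a: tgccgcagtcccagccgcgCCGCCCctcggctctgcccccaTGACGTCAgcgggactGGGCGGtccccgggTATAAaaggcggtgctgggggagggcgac
Dcx: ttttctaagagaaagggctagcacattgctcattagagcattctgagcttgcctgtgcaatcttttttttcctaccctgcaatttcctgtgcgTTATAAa
Tppp: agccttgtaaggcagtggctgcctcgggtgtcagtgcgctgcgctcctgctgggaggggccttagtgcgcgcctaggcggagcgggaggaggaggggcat
The matched genes that fell in KO fetuses differed in these 2 motifs. Tubb3, Tubb2a and Map1b hold TATAA and GGGCGG, Map2 holds GGGCGG only, and Tubb4a holds neither. Tppp, higher in KO fetuses, holds a GGGCGG 10 bases before its start, beyond the printed stretch. Dcx, not called at day 15 in the main fit, holds TATAA and no GGGCGG. Part of some windows lies at or past the first annotated exon base, where the printed stretches end. That part is 182 of 250 bases for Tubb4a, 129 for Tubb3, 92 for Dcx, 56 for Map2 and 12 for Tppp. For Tuba4a it is the whole window. The TATAA of Tubb3 nearest to the start, 30 bases before it, lies in that part. These matches describe the letters of the windows only.

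Other genes of the microtubule system were taken from role lists with 80 genes, of which 79 are in the table. Of 77 tested at day 15, 48 were lower and 14 higher in KO, beside 32.5% lower and 30.1% higher among all genes tested. In the corrected fit 33 were lower and 20 higher, beside 24.5% and 25.7%. Their median log2 fold change was -0.38, and -0.16 corrected. Among the other tubulins 7 of 10 tested were lower and 1 higher, and 7 and 0 corrected, the largest change being that of Tubb6 at -1.45 (-1.20 corrected), on 54 to 377 counts a library. Of the other structural MAPs 8 of 12 were lower and 1, Map9, was higher, and 6 were lower and 2 higher when corrected. Map1a, the mature relative of Map1b, fell from 183 ± 16.9 to 26.6 ± 4.75 CPM (SD, n = 3 each), or by 2.74 on the log2 scale (edgeR SE 0.119, adjusted p 3.45e-08), and its corrected value was -1.82.

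The collapsin response mediators, which couple guidance signals to tubulin, were lower in 5 of 5, and in 4 of 5 when corrected. Dpysl5 had the largest uncorrected change of them (-1.71, and -0.84 corrected). The 3 doublecortin-like kinases were lower, with Dclk3 at -1.37 (-0.89 corrected), but Dclk2 (-0.14) was higher when corrected, at 0.68. The 3 other stathmins were higher, with Stmn4 at 0.56 and 0.55 corrected. Of these Stmn1 (0.17) was not called when corrected, at -0.14, the opposite sign. The folding cofactors were split, 4 higher and 2 lower of 7, and 5 and 1 corrected, with Tbca, which holds beta tubulin during folding, at 1.47 and 0.28 corrected. For the 16 tubulin modifying enzymes the correction turned the balance. They were lower in 10 and higher in 3 without it, and lower in 3 and higher in 8 with it, and their median went from -0.30 to 0.18. Their extremes were Vash1 (-1.20, and -0.49 corrected) and Svbp (1.16, and 0.89 corrected), which together form a tyrosine-removing enzyme. Of the end-binding proteins 8 of 11 were lower and 1 higher, and 6 and 2 corrected, with Clip2 at -1.44 and -0.42 corrected. Of the severing enzymes 4 of 6 were lower and 1 higher, and 3 and 0 corrected. Of the 3 genes of the LIS1 complex 1 was lower in both fits, Nde1 (-0.38, and -0.36 corrected), and Tppp3 was called in neither.

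By age 78 of the listed genes were tested, and 36 were higher and 30 lower at week 70, beside 37.6% higher and 44.4% lower among all 20000 genes tested, of which 82.0% were called. In the corrected fit 33 were higher and 33 lower, beside 39.7% and 39.0%. Of the structural MAPs 8 of 12 were higher and 2 lower, but 5 higher and 4 lower when corrected, and their median went from 1.36 to 0.28. Map1a reached 1742 ± 87.5 CPM (SD, n = 2), a rise by 5.93 on the log2 scale (edgeR SE 0.15, adjusted p 1.86e-10), and by 5.57 corrected. Map7d3 was lower (-4.66, edgeR SE 0.969), with 0 and 1 counts at week 70, so that this fold change depends on the fit's prior count. Of 11 other tubulins 5 were higher and 5 lower, and 5 and 4 corrected, from Tuba8 at 5.91 (5.66 corrected) to Tube1 at -2.78 (-2.24 corrected). Among the collapsin response mediators 4 of 5 were lower and 1 higher in both fits, with Dpysl3 at -4.39 and -4.81 corrected.

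Of the doublecortin-like kinases 2 rose and 1 fell in both fits, with Dclk3 at 3.79 (3.18 corrected) and Dclk2 at -2.38 (-2.88 corrected). Modifying enzymes were higher in 7 and lower in 7, and in 7 and 8 corrected, with Ttll7, which adds glutamates to tubulin, at 2.82 (3.45 corrected) and Vash2 at -4.26 (-4.69 corrected). The end-binding proteins Mapre3 and Mapre1 moved apart (1.5 and -1.38, and 1.03 and -0.93 corrected), with 3 of 11 of that list higher and 5 lower, and 3 and 6 corrected. Severing enzymes were lower in 4 of 6 and higher in 2, and 4 and 1 corrected, with Fignl1 at -4.29 (-3.46 corrected). Of the folding cofactors 3 were higher and 2 lower, with Tbcc at 1.43 (1.05 corrected) and Tbce at -1.83 (-1.03 corrected). Corrected, 4 of them were higher and 2 lower, and Tbca turned from -1.15 to 1.73. The others named by the rule were Ndel1 (1.40 in both fits, 2 of 3 of its list higher), Stmn1 (1.08, and 1.65 corrected, 2 of 3 higher) and Tppp3 (1.28, and 1.03 corrected).

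Among 12844 genes with a mean of at least 50 counts, those nearest to Tubb3 over the 8 libraries, by root mean square distance of centred log2 CPM, were Zfp282 (0.0569), Trrap (0.0688) and Igf1r (0.0780). Nearest to Tubb4a were App (0.0676), Lingo1 (0.133) and Psap (0.137). App, the amyloid precursor gene, was at 530.1, 141 and 2164 CPM in the group means of WT, KO day 15 and week 70. These distances describe a pattern over 8 libraries that fall into 3 groups. Among the 10 genes themselves, Tubb3 and Map1b were the nearest pair, at 0.389, and Tuba4a and Dcx the farthest, at 5.79. The distances carry no correction for length and GC content. In the corrected fit the log2 fold changes of Tubb3 and Map1b were -0.86 and -1.58 at day 15, and -1.20 and 0.059 by age.

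Markers of cell types changed too, not always in the direction of these genes, and their part in the results was not tested. By age the summed level of 8 oligodendrocyte markers was 82.6 to 86.1 CPM in KO day 15 and 13582.5 to 13717 at week 70, with all 8 higher, beside the rises of Tppp and Tubb4a. Mobp held at most 5 and Opalin at most 5 counts in a KO fetal library. The 8 mature neuron markers were all higher at week 70, at 13528 to 14795 CPM against 603 to 642, and the 8 immature neuron markers all lower, at 349 to 411 against 2065 to 2125, beside the falls of Dcx, Tubb2b and Stmn2. Of 8 astrocyte, 8 microglia and 8 endothelium markers all were higher at week 70, of 8 progenitor markers 6 were lower and 1 higher, of 8 fibroblast and meninges markers 4 were higher and 2 lower, and all 7 tested erythroid markers were lower. Corrected, these counts differed for immature neuron markers (7 lower), progenitor markers (6 lower and 2 higher) and fibroblast and meninges markers (4 higher and 1 lower). Between the fetal genotypes, immature neuron markers summed to 4001 to 4499.6 CPM in WT and 2065 to 2125 in KO, with 6 of 8 lower and 1 higher, and 6 and 0 corrected. In the main fit 6 of the 10 genes were lower as well, but Stmn2 and Tppp were higher, and Dcx and Tuba4a were not called. Mature neuron markers summed to 792 to 961 and 603 to 642, with 5 lower and 1 higher, but 3 and 0 corrected, and their median log2 fold change went from -0.70 to -0.074. Oligodendrocyte markers summed to 99.9 to 112 and 82.6 to 86.1, with 3 of 6 tested lower and 2 higher, and 1 and 2 corrected. Progenitor markers were lower in 8 of 8, and in 6 corrected (1356 to 1567 CPM in WT, 629 to 639 in KO). Astrocyte markers were lower in 5 and higher in 1 in both fits, but the higher marker was a different gene in each. Microglia markers were lower in 3 and higher in 1, and 3 and 0 corrected. In both fits, endothelium markers were lower in 7 of 8, and fibroblast and meninges markers in 6 of 8. The last of these summed to 321 to 4473 CPM in WT. Erythroid markers were higher in 6 of 7 tested in both fits, at 3571 to 4384 CPM against 958 to 1239.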

How the data were processed

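The deposited values are whole-number read counts by Ensembl gene identifier, not normalised, in a single table with a column for each library, per the file headers. The submitters' processing notes name FastQC, cutadapt, Trimmomatic, HISAT2, featureCounts and edgeR, and the builds GRCm38 and GRCm39, with no versions or roles. Per the labels' protocols, RNA was selected on oligo-dT beads. The annotation, strand setting and treatment of reads with several matches are not given in the sources used here.

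Counts were tested with edgeR 4.0.16 (R 4.3.3): filterByExpr, TMM, quasi-likelihood F-test, two-sided, Benjamini-Hochberg over all genes, threshold 0.05. The 6 fetal libraries entered the genotype comparison and the 5 KO libraries the age comparison. The SE is that implied by the F statistic. Lengths, GC content, exons and coordinates came from GENCODE M 21 (GRCm38), which matched 97.3% of the identifiers. The corrected fit smooths each library's deviation on log length and GC content (mgcv 1.9.3) and enters it as an offset. Pseudogene parents came from minimap2 2.31 (at least 50% aligned at 85% identity).

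On simulated counts 200 genes were given a log2 change of 1, up or down in turn. The test recovered 68% for the genotype comparison (18807 genes, 7.48% of calls false) and 67% for age (18943 genes, 13.5% false). Both false shares lay above the threshold of 0.05. In the data 62.6% and 82.0% of the genes tested were called, so that these rates do not describe the comparisons themselves. Replicates differed beyond sampling noise in every pair. The members and lists were chosen with earlier results of these data known. Genes beyond the 10 were named by rule: the isotypes of the tubulin pools, the largest called change of each role list and the next if of opposite sign, and the nearest in pattern to Tubb3 and Tubb4a. A gene that this rule names is not reported here. Map9, Mobp, Opalin, Dclk2 and Stmn1 at day 15, and Tbca by age, were named after their values were seen. Alternatives were RLE and upper-quartile scaling, other filters, DESeq2 1.42.0, all 8 libraries in one fit, the corrected fit, a replicate block and each library left out.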

Additional observations from a re-analysis of the deposited data

How the results depend on the processing

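The number of the 10 genes called was 7 to 9 at day 15 (8 in the main analysis) and 7 to 10 by age (9) over all alternatives. At day 15, 11993 of all 19147 genes tested were called in the main analysis. It was 11997 of 33334 without a filter, the lowest share, and 12542 of 19147 with upper-quartile scaling, the highest. By age these were 16390 of 20000, 18622 of 32646 and 16457 of 20000 genes, in the same order. With upper-quartile scaling the median log2 fold change over all genes shifted by 0.17 at day 15 and by -0.25 with age. The share of day 15 calls that were higher in KO went from 48.1% to 60.8% with it. Without a filter the medians shifted by 0.11 and -0.71, and with the length and GC correction that of age by 0.15. Tubb3, Tubb2a, Tubb2b, Tubb4a, Map1b and Stmn2 at day 15, and Tubb3, Tubb2b, Tubb4a, Tuba4a, Dcx, Stmn2 and Tppp by age, kept their direction and their call in every alternative run. Signs turned for Dcx at day 15 with upper-quartile scaling (0.035), for Tuba4a and Map2 at day 15 with the length and GC correction (0.12 and 0.11) and its combination with the block (0.13 and 0.11), for Map1b by age with both (0.059 and 0.067), and for Tubb2a by age with the combination (-0.019). The cause was not tested. Leaving out 1 library kept the Tubb2a change at day 15 between -1.46 and -1.11, and the fits that left 1 library at week 70 assume that it varies like the others.

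With the length of the longest transcript in place of all exons, the share of Tubb3 in beta tubulin was 24.3, 18.3 and 15.6% in WT, KO day 15 and week 70, that of Tubb4a 3.12, 1.54 and 30.1%, and that of Tuba4a in alpha tubulin 0.0882, 0.118 and 22.7%. Without Tuba1b, Tuba1c, Tubb5 and Tubb4b the shares were 35.8, 28.0 and 23.2% for Tubb3, 4.60, 2.35 and 44.5% for Tubb4a, and, for Tuba4a, 0.102% in KO day 15 and 27.9% at week 70. A smaller or larger pool changes these shares by construction. With pseudogene counts added to parents, WT held 25.7% Tubb3, 3.30% Tubb4a and 0.0575% Tuba4a, and KO day 15 0.0838% Tuba4a. The log2 ratio of Tubb4a to Tubb3 in WT was -2.73 with corrected counts.

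With the replicate number of the titles as a block, 11184 genes were called at day 15 (11993 without it) and 14876 by age (16390), and of the 10 genes 8 and 8, Tubb2a by age being lost (0.19). Fetal libraries with the same number did not deviate together. The correlation of their deviations was -0.17 to -0.14 between the fetal groups, and no WT library correlated best with its own number. Between the KO ages the correlation was 0.025 and 0.0058. With only 2 libraries at week 70, that with the other number is the same with its sign turned, so these values cannot decide the question. Depth limits Tuba4a most, with at most 112 counts in a fetal library.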
